A study of Homo sapiens with 12 samples.

Results

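The genes described here are 10 members of the AP-1 and immediate early class: FOS, FOSB, FOSL1 and FOSL2 of the FOS family, JUN, JUNB and JUND of the JUN family, and EGR1, IER2 and IER3. They were chosen by gene symbol from a table of 58233 genes, and each of the 10 was found under its own symbol. Expression was measured by poly(A) RNA sequencing in HL-60 cells, an established human myeloid leukaemia line with unaltered genotype, grown in RPMI with foetal calf serum. Cells were left untreated or received all-trans retinoic acid (ATRA) at 100 nM, palbociclib at 500 nM, or both drugs at these doses (combination), and RNA was taken after 3 h, with 3 libraries for each of the 4 groups. ATRA activates nuclear receptors that act as transcription factors, and palbociclib inhibits the cell cycle kinases CDK4 and CDK6. The table gives each value in RPKM (reads scaled to gene length and library size) as a whole number, so a step of 1 RPKM is the finest difference that can be read.

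AP-1 is a family of leucine zipper dimers. JUN proteins pair with one another or with FOS proteins, FOS proteins need a JUN partner, and the dimers bind a short palindromic DNA site in many promoters and enhancers. Several of these genes are transcribed within minutes of a growth factor, phorbol ester or stress signal, without new protein synthesis, and their mRNAs are short-lived. In myeloid cells AP-1 factors are known for their part in monocytic and macrophage differentiation.

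The promoters of JUN, JUND, IER2 and EGR1 are shown because they carry the features by which this class is usually described, and because their genes stood in different places in the data: JUN was low with ATRA, IER2 and JUND had their lowest ATRA library above the highest untreated one, and EGR1 stayed at 0 or 1 RPKM. Each sequence is the 250 bases before the RefSeq transcript start (GRCh38.p14), written 5′ to 3′ on the gene's strand, and capitals mark motif matches on either strand. JUN lies at chr1:58784048-58784297 (minus strand), JUND at chr19:18281623-18281872 (minus strand), IER2 at chr19:13150161-13150410 (plus strand) and EGR1 at chr5:138465229-138465478 (plus strand).
JUN: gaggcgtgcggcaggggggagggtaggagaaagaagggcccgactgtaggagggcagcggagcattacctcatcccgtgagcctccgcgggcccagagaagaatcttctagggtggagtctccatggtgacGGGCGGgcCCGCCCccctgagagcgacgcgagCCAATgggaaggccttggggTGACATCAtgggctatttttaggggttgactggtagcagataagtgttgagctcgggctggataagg
JUND: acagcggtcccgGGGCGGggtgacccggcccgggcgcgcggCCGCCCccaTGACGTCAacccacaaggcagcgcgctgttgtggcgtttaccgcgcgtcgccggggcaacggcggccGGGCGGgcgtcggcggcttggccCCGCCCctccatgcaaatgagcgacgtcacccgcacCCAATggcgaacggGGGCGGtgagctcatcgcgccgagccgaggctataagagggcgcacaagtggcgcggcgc
IER2: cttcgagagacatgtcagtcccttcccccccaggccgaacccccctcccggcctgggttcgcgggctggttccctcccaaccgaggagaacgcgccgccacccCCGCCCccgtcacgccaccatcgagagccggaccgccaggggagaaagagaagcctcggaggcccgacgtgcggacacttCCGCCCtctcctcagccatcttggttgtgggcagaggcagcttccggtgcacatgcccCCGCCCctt
EGR1: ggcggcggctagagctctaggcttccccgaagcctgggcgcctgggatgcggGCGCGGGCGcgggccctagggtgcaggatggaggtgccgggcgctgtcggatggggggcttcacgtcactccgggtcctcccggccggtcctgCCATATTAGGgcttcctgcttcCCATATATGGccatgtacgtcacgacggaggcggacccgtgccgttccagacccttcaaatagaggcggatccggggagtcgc

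The JUN sequence held TGACATCA, the variant AP-1 site through which JUN is known to act on its own gene, at positions -67 to -60 from the start, with a CCAAT box at -87 to -83 and GC boxes (GGGCGG or its complement) at -119 and -111. JUND held the cAMP response element TGACGTCA at -200 to -193, a CCAAT box and 5 GC boxes. IER2 held 3 GC boxes and no other searched motif. EGR1 held CArG boxes, the binding site of serum response factor, at -105 to -96 and -83 to -74, and an EGR site (GCGNGGGCG) at -198. RefSeq promoters were at hand for 8 of the 10 genes, and FOSL1 and IER3 were not searched. FOS, FOSB and JUNB held a TATA box (TATAAA) at -33, -30 and -31, and FOSL2 held a single GC box at -247.

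None of the 8 held the consensus AP-1 site TGANTCA, which 6.57% of 35116 promoters of the same length carried. TGACATCA was found in 2.37% of those promoters, TGACGTCA in 1.65%, a CArG box in 1.16%, TATAAA in 10.7%, CCAAT in 32.0%, GGGCGG in 42.6% and the EGR site in 8.41%. Neither spacing of the retinoic acid response element that was searched (DR5, in 0.282% of promoters, and DR2, in 0.199%) matched in any of the 8. An EGR site can share bases with a GC box. These matches describe letters in the sequence and were not tested for binding.

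The summed RPKM of a library ranged from 358455 to 390247 and the number of genes at 1 RPKM or more from 13127 to 13447; read totals are not in the table, so the depth of each library is unknown. No pair of replicates was a duplicate: over 2281 genes, the 12 pairs within groups shared between 5.13% and 14.3% of their values. Same-numbered ATRA and combination libraries shared more, with 19.0%, 19.7% and 17.1% for replicates 1, 2 and 3. The myeloid markers MPO (1077 to 1579 RPKM), LYZ (666 to 1266 RPKM), PRTN3 (195 to 310 RPKM) and SPI1 (80 to 112 RPKM) were high in every library. CTSG (15 to 29 RPKM), AZU1 (13 to 27 RPKM) and CD33 (6 to 8 RPKM) stood lower, and ELANE was at 0 or 1. The T cell, erythroid, epithelial and fibroblast markers were at 0 in all 12 libraries, as was MS4A1, and the B cell gene CD79A was at 0 or 1 RPKM. Nothing in the labels says whether the 3 libraries of a group came from separate cultures, so p-values measure the spread between these libraries. In bulk RNA, fewer cells of a kind and less RNA per cell cannot be told apart.

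In untreated cells the JUN family was the better expressed side of AP-1. JUNB stood at 15.3 ± 2.08 RPKM (SD, n = 3), above 72.9% of the 12480 genes with an untreated mean of at least 1 RPKM, and JUND at 13 ± 2 RPKM, above 69% of them. FOSL2 followed at 8.33 ± 1.53 RPKM, IER2 at 7 ± 1.73 RPKM, FOSL1 at 5 RPKM in each library and JUN at 4.67 ± 0.577 RPKM. FOS, the founding member of the family, was at 2 RPKM in all 12 libraries of the study. FOSB was at 0 in all 12, and EGR1 and IER3 were at 0 in the 3 untreated libraries. In this order the ranges of the 3 libraries overlapped between JUNB and JUND and between FOSL2 and IER2, and IER2, FOSL1 and JUN met at 5 RPKM, whereas JUND and FOSL2 did not overlap. FOS, FOSB, EGR1 and IER3 were thus near or below the step of the table.

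**Figure D1:**
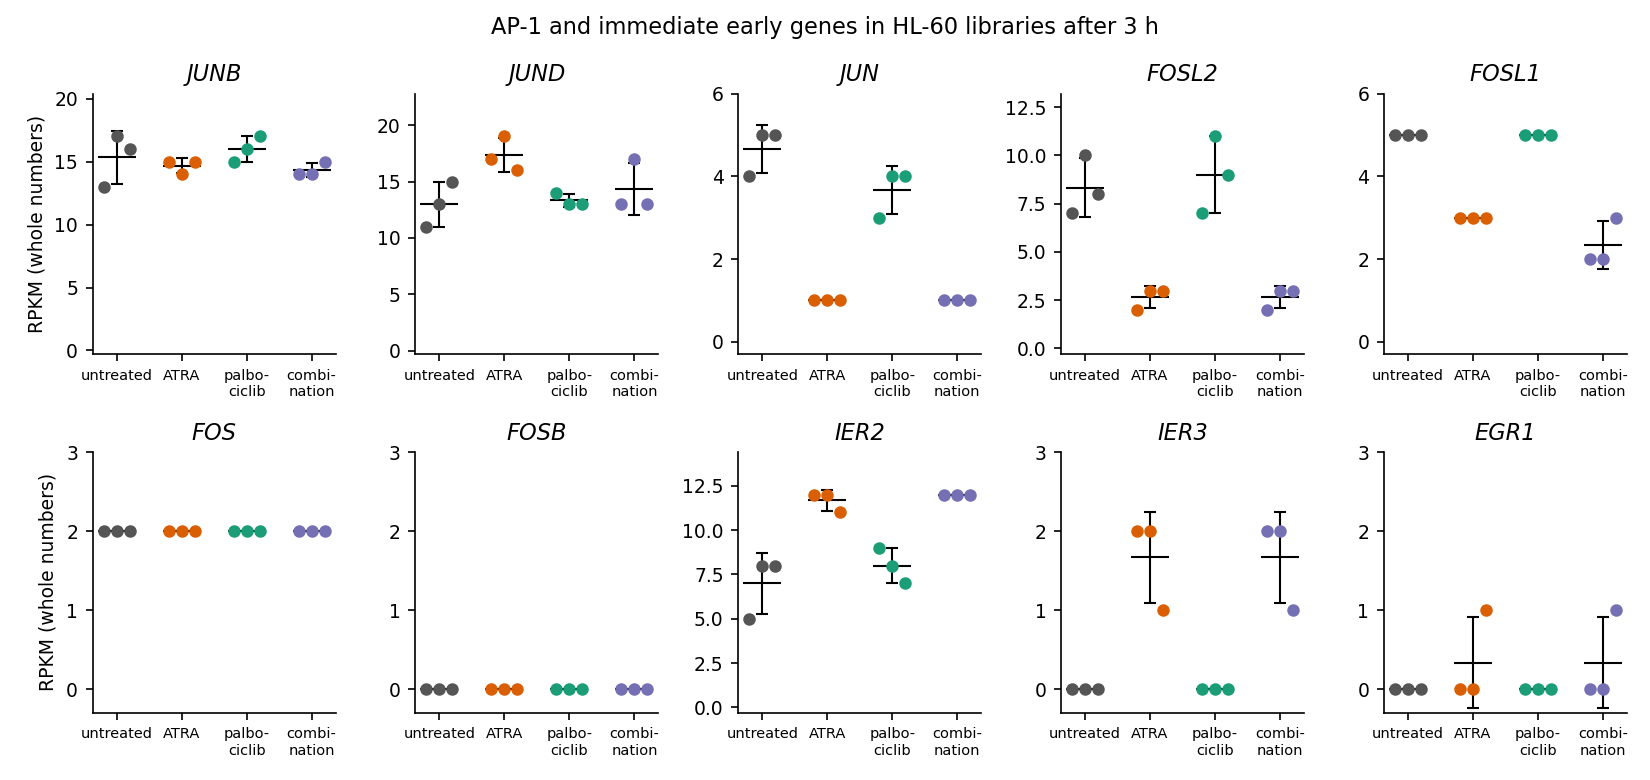
RPKM (y axis, from 0) of the 10 genes in each library, by treatment (x axis); points are the 3 replicates in order of their number, horizontal bars the mean and whiskers the SD. JUN, FOSL2 and FOSL1 are lower in both groups given ATRA, IER2 and IER3 are higher, and FOS and FOSB do not vary.

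With ATRA alone, 3 of the 10 genes were lower in every library than in any untreated library (FOSL1, FOSL2 and JUN) and 3 were higher (JUND, IER2 and IER3), while FOS, FOSB, JUNB and EGR1 overlapped. Among the 14003 genes with at least 1 RPKM in at least 3 libraries, which include 8 of the 10, groups failed to overlap in 12% on the lower side and 8.83% on the higher side. Of the 7820 genes tested with limma (at least 5 RPKM in at least 3 libraries), 1.94% were called lower and 2.77% higher at an adjusted p under 0.001. FOSL1, FOSL2, JUNB, JUND and IER2 were among those tested, and 1 of these 5, FOSL2, was called. FOS, FOSB, JUN, EGR1 and IER3 were below this minimum. FOSL1 and FOSL2 reached it only through the libraries without ATRA, where they were higher, so that their entry into the test depended on the groups compared, and the fit with a minimum of 1 RPKM, which both reach with and without ATRA, is given beside theirs.

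FOSL2, which encodes the FOS-related protein FRA-2, had 7, 10 and 8 RPKM in untreated replicates 1, 2 and 3, and 2, 3 and 3 RPKM with ATRA. The highest ATRA library was below the lowest untreated one by more than the range within either group. On the scale of log2(RPKM + 0.1) the difference of FOSL2 was -1.62 with ATRA (SE 0.23, limma, adjusted p = 0.000616), and with the minimum of 1 RPKM it was no longer called (adjusted p = 0.00241). The untreated mean was 3.13 times the ATRA mean, and the whole-number step allows a ratio between 2.47 and 4.08 if values were rounded to the nearest whole number, or between 2.27 and 3.5 if decimals were dropped. Without a block the call rests on a narrow margin. The adjusted p (limma) lay between 0.000536 and 0.00427 when single libraries were left out. It crossed the threshold in 10 of 12 such fits (without any one of the untreated or ATRA libraries, palbociclib replicate 2 or 3, or combination replicate 2 or 3). The difference itself stayed between -1.73 and -1.43 in those fits.

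FOSL1, which encodes FRA-1, read 5 RPKM in all 3 untreated libraries and 3 RPKM in all 3 ATRA libraries. The groups were apart by 2 steps of the table, a log2 difference of -0.72 (SE 0.14), and the adjusted p of 0.00403 (limma, or 0.00618 with the minimum of 1 RPKM) missed the threshold of 0.001. It passed without combination replicate 3, the one library that spread FOSL1 within a group, at an adjusted p of 0.000138 (limma). The SE of FOSL1, here and below, partly reflects the absence of recorded spread in the untreated, ATRA and palbociclib libraries. The whole-number step allows the untreated mean to be 1.29 to 2.2 times the ATRA mean under rounding to the nearest number. FOS and FOSB, at 2 and 0 RPKM throughout, showed no difference that this table can resolve.

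Of the AP-1 genes with a level in both groups, JUN had the largest ratio between untreated and ATRA libraries. It read 4, 5 and 5 RPKM in the untreated libraries and 1 RPKM in each ATRA library, so that every ATRA value was at least 3 steps below every untreated one. The untreated mean was 4.67 times the ATRA mean, with bounds of 2.78 and 10.3 under rounding to the nearest number and of 2.33 and 5.67 if decimals were dropped. These overlap the bounds of FOSL2 (2.47 to 4.08, or 2.27 to 3.5), so the step leaves the order of JUN and FOSL2 unsettled. In the fit with the lower minimum of 1 RPKM, which admits JUN, the log2 difference was -2.11 (SE 0.12, limma, adjusted p = 2.87e-06). In that fit 1.74% of genes were called lower and 1.95% higher. The SE of JUN there partly reflects the absence of any recorded spread in the ATRA libraries, since a step of 1 RPKM equals its whole level.

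JUNB and JUND, the other two JUN genes, had no ATRA library below the untreated range. JUNB, whose product often restrains JUN, read 13, 17 and 16 RPKM untreated and 15, 14 and 15 RPKM with ATRA, and its log2 difference of -0.06 had a 95% interval from -0.26 to 0.15. JUND, the JUN protein of resting cells, read 11, 13 and 15 RPKM untreated and 17, 19 and 16 RPKM with ATRA. Its ATRA libraries were all above the untreated ones, by 1 step at the nearest pair. The log2 difference of 0.42 (SE 0.13) had an adjusted p of 0.0415 (limma), short of the threshold.

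IER2 and IER3, small immediate early genes outside the AP-1 families, were higher with ATRA. IER2, a nuclear growth-response protein, had 5, 8 and 8 RPKM untreated and 12, 12 and 11 RPKM with ATRA, with a gap of 3 steps between the groups. Its log2 difference of 0.76 (SE 0.16) had an adjusted p of 0.00678 (limma), so it was not called at 0.001; the ATRA mean was 1.67 times the untreated mean, with bounds of 1.49 and 1.87 under rounding to the nearest number. IER3, an early gene linked to survival under stress, was listed at 0 in the untreated libraries and read 2, 2 and 1 RPKM with ATRA. No ratio can be formed against a group listed at 0, and IER3 reached the minimum of 1 RPKM only through the groups given ATRA, so no test is given for it. EGR1, the zinc finger factor that is a standard readout of MAP kinase signalling, was at 0 in all but ATRA replicate 3 and combination replicate 3, which read 1 RPKM. At an adjusted p under 0.05, 4 of the 5 tested genes passed, JUND and IER2 higher and FOSL1 and FOSL2 lower, while 8.71% of all tested genes passed higher and 11.6% lower.

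With palbociclib alone no member was called and the libraries of each overlapped with the untreated ones. Groups failed to overlap in 3.75% of genes on the higher and 6.3% on the lower side at the minimum of 1 RPKM. Limma called 0.0128% of genes higher and 0.486% lower, and none of the 5 tested members had an unadjusted p under 0.05 in that fit. FOSL1 read 5 RPKM in each palbociclib library as in each untreated one, with a 95% interval of the log2 difference from -0.30 to 0.30. FOSL2 read 7, 11 and 9 RPKM, a log2 difference of 0.10 with an interval from -0.40 to 0.60. JUN read 3, 4 and 4 RPKM against 4, 5 and 5, which is the only member below its untreated counterpart at every replicate number, and the groups shared the value 4. Its log2 difference of -0.34 (SE 0.12) had an interval from -0.61 to -0.08 in the fit with the minimum of 1 RPKM, with an unadjusted p of 0.0169 and an adjusted p of 0.188 (limma). JUNB (15, 16 and 17 RPKM), JUND (14, 13 and 13 RPKM) and IER2 (9, 8 and 7 RPKM) had log2 differences of 0.07, 0.05 and 0.22, with intervals that reached at most 0.57 in either direction. IER3 and EGR1 stayed at 0.

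In cells given both drugs the same genes stood apart from untreated cells as with ATRA alone, apart from JUND. FOSL1, FOSL2 and JUN were lower in every combination library and IER2 and IER3 higher, whereas JUND overlapped. Without overlap 14.5% of genes were lower and 11.1% higher at the minimum of 1 RPKM. Of the 5 tested genes 2 were called lower and 0 higher, where 4.28% of all tested genes were called lower and 3.76% higher. The 2 called, FOSL1 and FOSL2, had entered the test only through the libraries without ATRA, so this count is a description. FOSL1 read 2, 2 and 3 RPKM and fell by 1.09 on the log2 scale (SE 0.14, limma, adjusted p = 0.000188, or 0.000415 with the minimum of 1 RPKM). FOSL2 read 2, 3 and 3 RPKM, the same values as with ATRA alone, with a log2 difference of -1.62 (SE 0.23, limma, adjusted p = 0.000395, or 0.00181 and not called with the minimum of 1 RPKM). Leaving out single libraries gave adjusted p-values (limma) from 1.11e-05 to 0.00136 for FOSL1, above the threshold without any one untreated library or combination replicate 2. For FOSL2 they ran from 0.000341 to 0.00289, above it without any one untreated or combination library or palbociclib replicate 3. With the replicate number as a block they were 0.000217 for FOSL1 and 4.17e-06 for FOSL2, where 8.82% of all tested genes were called lower.

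JUN was at 1 RPKM in each combination library (log2 difference from untreated -2.11, adjusted p = 2.62e-06, limma with the minimum of 1 RPKM, where 2.87% of genes were called lower and 2.55% higher). IER2 was at 12 RPKM in each, a log2 difference of 0.80 (SE 0.16) with an adjusted p of 0.00338 (limma). IER3 repeated its ATRA values of 2, 2 and 1 RPKM. JUND read 13, 17 and 13 RPKM and JUNB 14, 14 and 15 RPKM, with log2 differences of 0.14 and -0.09 whose intervals ran from -0.14 to 0.42 and from -0.29 to 0.12. These comparisons and those of ATRA and palbociclib alone share the same 3 untreated libraries.

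The combination against palbociclib alone shares no library with the ATRA comparison and gives a second reading of adding ATRA. It is not independent of the first, since a single fit over all 12 libraries gave both their spread. Same-numbered ATRA and combination libraries also deviated together (r = 0.782 to 0.908). Fitted on the compared groups only, neither FOSL1 (adjusted p = 0.0237, limma) nor FOSL2 (adjusted p = 0.017, limma) was called. The values below are from the shared fit. FOSL2 went from 7, 11 and 9 to 2, 3 and 3 RPKM, a log2 difference of -1.72 (SE 0.23, limma, adjusted p = 0.00053, or 0.00225 and not called with the minimum of 1 RPKM). FOSL1 went from 5 RPKM throughout to 2, 2 and 3 RPKM, and fell by 1.09 (SE 0.14, limma, adjusted p = 0.000373, or 0.000727 with the minimum of 1 RPKM). JUN went from 3, 4 and 4 to 1 RPKM throughout, and the palbociclib mean was 3.67 times the combination mean with bounds of 2.11 and 8.33 under rounding to the nearest number. Its log2 difference was -1.76 (adjusted p = 1.44e-05, limma with the minimum of 1 RPKM, where 0.993% of genes were called lower and 1.57% higher). IER2 went from 9, 8 and 7 to 12 RPKM throughout, a log2 difference of 0.59 (SE 0.16) with an adjusted p of 0.0345 (limma).

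In all, 2 of the 5 tested genes were called lower and 0 higher between the combination and palbociclib, where 0.997% of all tested genes were called lower and 2.11% higher. Both, FOSL1 and FOSL2, entered the test only through the libraries without ATRA. The filter itself thus favoured these lower calls, and the count is a description. Without overlap stood 3 lower (FOSL1, FOSL2, JUN) and 2 higher (IER2, IER3) of the 10, against 6.86% and 6.21% of genes at the minimum of 1 RPKM. The FOSL1 call was lost in 10 and the FOSL2 call in 11 of the 12 fits without a single library, with adjusted p-values up to 0.00264 and 0.00425. FOSL1 held without ATRA replicate 1 or combination replicate 3, and FOSL2 held without ATRA replicate 1.

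Between the combination and ATRA alone no member was called. No member's groups failed to overlap between the combination and ATRA, where 1.56% of genes were lower and 0.621% higher at the minimum of 1 RPKM, and limma called 0.0% of all tested genes in either direction. Of the members, FOSL1 alone had an unadjusted p under 0.05 in the unblocked fit (0.0204, adjusted p = 1, limma), with 2, 2 and 3 RPKM in the combination against 3 RPKM throughout with ATRA. FOSL2 had the same 3 values in both groups, number by number, and the interval of its log2 difference ran from -0.50 to 0.50, or from -0.20 to 0.20 with the replicate number as a block. JUND was at 13, 17 and 13 RPKM against 17, 19 and 16 RPKM, a log2 difference of -0.28 with an interval from -0.56 to 0.00376, or from -0.56 to -0.0011 with the block (unadjusted p = 0.0493, adjusted p = 0.605, limma). The departure from additivity (the palbociclib effect with ATRA present minus that without it, in log2 units) lay between -0.37 (FOSL1) and -0.10 (JUNB and FOSL2) for the 5 tested genes and was called for none (adjusted p = 1 for each, limma, with 0.0% of all tested genes called). For JUN, in the fit with the minimum of 1 RPKM, it was 0.34, with an interval from -0.03 to 0.72, and was not called (unadjusted p = 0.0677, limma). JUN was at a single step of the table in both groups given ATRA.

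**Figure D2:**
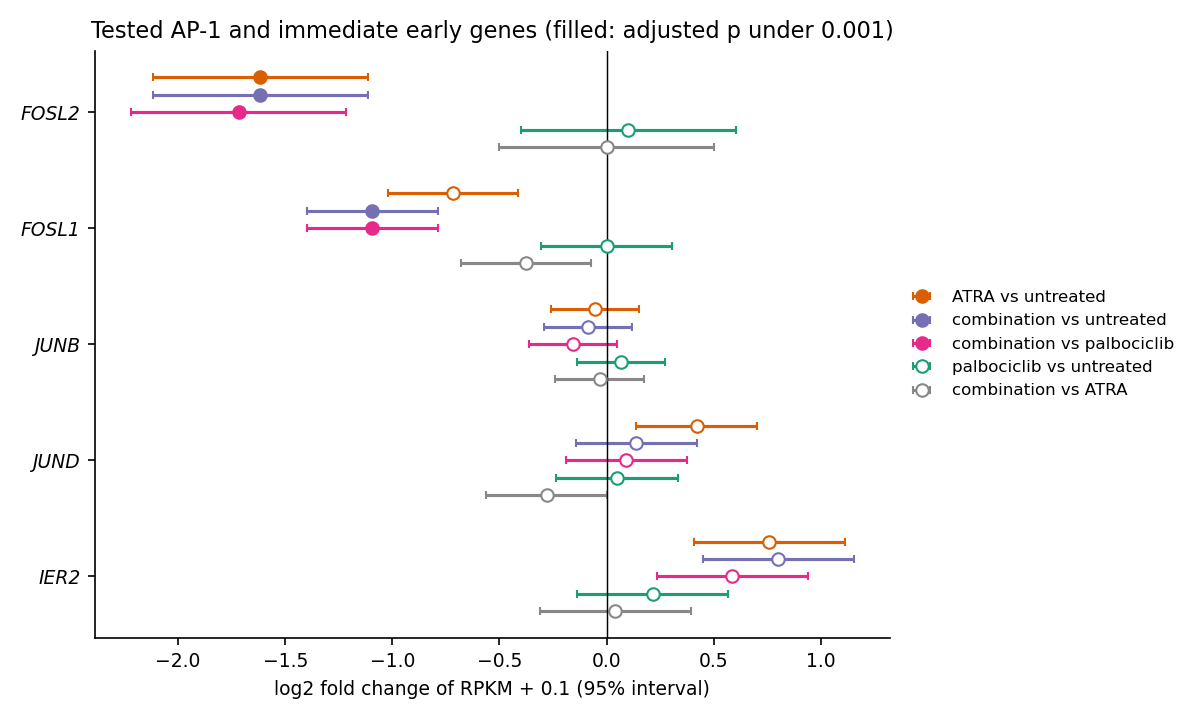
Log2 fold change of RPKM + 0.1 (x axis) for the 5 tested genes (y axis) in 5 comparisons (colours); whiskers are 95% intervals and filled points passed an adjusted p under 0.001. FOSL2 lies between -1.72 and -1.62 in the 3 comparisons that add ATRA and close to 0 in both that add palbociclib, and JUNB stays within 0.16 of 0 in all 5.

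Over the whole design, the 6 libraries with ATRA and the 6 without did not overlap for FOSL1, FOSL2 and JUN, which were lower, and for IER2 and IER3, which were higher. At the minimum of 1 RPKM, 4.01% of genes were lower in this way and 3.86% higher. The AP-1 genes with lower levels thus came from both families, and the family sums differed in their course. The FOS family summed to 15.3 ± 1.53 RPKM untreated and 16 ± 2 RPKM with palbociclib, against 7.67 ± 0.577 RPKM with ATRA and 7 ± 1 RPKM with the combination. The JUN family summed to 33 ± 4.36 RPKM untreated, 33 ± 1 RPKM with ATRA, 33 ± 1 RPKM with palbociclib and 29.7 ± 2.08 RPKM with the combination.

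Within the JUN family, JUN made up 14.2 ± 0.229% of the sum in untreated cells, 11.1 ± 1.49% with palbociclib, 3.03 ± 0.0919% with ATRA and 3.38 ± 0.231% with the combination. JUND held 39.4 ± 2.26%, 40.5 ± 2.91%, 52.5 ± 3.05% and 48.1 ± 4.4% in the same order, and JUNB held between 44.5% and 48.5% in all 4 groups. Within the FOS family, FOSL2 held 54.1 ± 4.46% untreated and 34.5 ± 5.16% with ATRA, and FOS, whose level did not move, held 13.1 ± 1.27% and 26.2 ± 2.06%. Shares of small whole numbers move with single steps, and they are given as a description without a test.

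**Figure D3:**
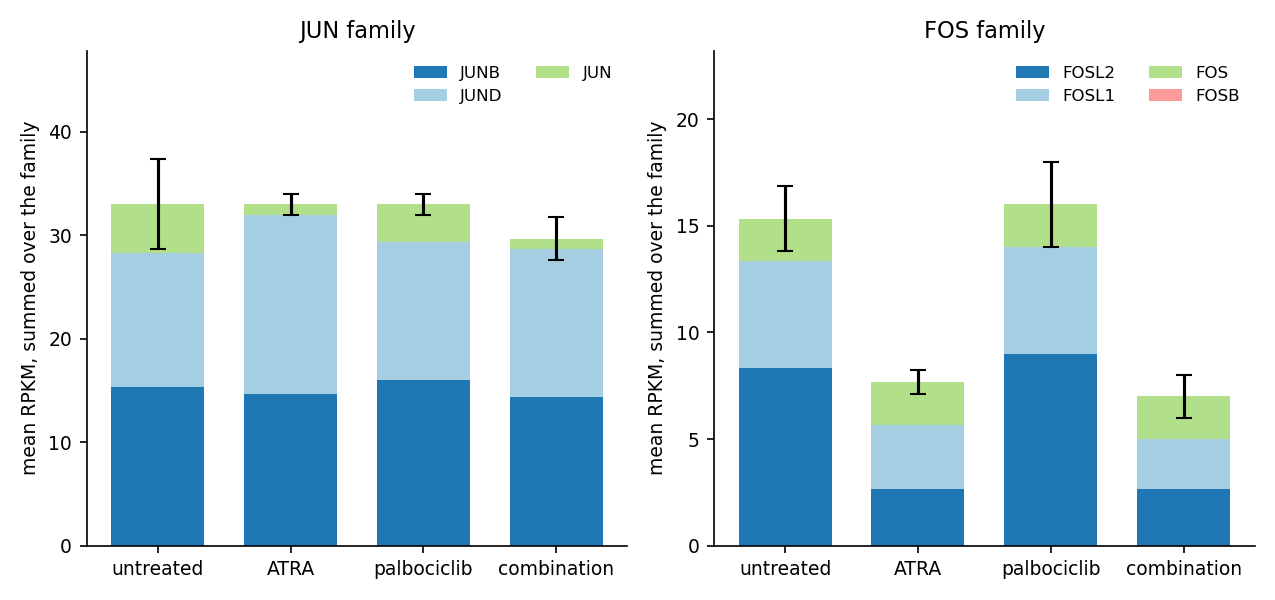
Mean RPKM (y axis, from 0) of the JUN genes (left) and FOS genes (right), stacked within each treatment (x axis); whiskers are the SD of the family sum over 3 libraries. The JUN family sum stays between 29.7 and 33 RPKM while its JUN layer shrinks with ATRA, and the FOS family sum is 15.3 and 16 RPKM without ATRA and 7.67 and 7 RPKM with it; FOSB is at 0.

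Across the 12 libraries, FOSL2 and JUN moved together most closely of all member pairs with a positive correlation (Pearson r = 0.96), followed by FOSL1 with JUN (r = 0.91) and FOSL1 with FOSL2 (r = 0.90). IER2 and IER3 moved together (r = 0.87) and against JUN (r = -0.86 and -0.97). JUNB was not close to any of them, with r between -0.50 and 0.56. The 12 libraries share 4 treatments, so these values mostly restate the group differences and are given without a p. Within groups, FOSL2 was lowest in replicate 1 of every group, and untreated replicate 1 also had the lowest untreated value of JUN, JUNB, JUND and IER2. Whether the replicate numbers share a culture or a day was not tested.

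Outside the 10 genes, AP-1 has further bZIP partners of the ATF, BATF and MAF groups, and 8 of the 19 examined were tested. With ATRA 1 was called higher (MAFG, a small MAF protein, 23.7 ± 1.53 to 31.3 ± 0.577 RPKM, log2 difference 0.41, SE 0.06, limma, adjusted p = 7e-04) and 0 lower. Of all tested genes 2.77% were called higher and 1.94% lower with ATRA. With palbociclib and with the combination 0 of the 8 were called. The median log2 difference of the 8 with ATRA was -0.01, the same as that of all 7820 tested genes.

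Of 50 other immediate early and primary response genes, 22 were tested. With ATRA 8 were called higher and 2 lower, with palbociclib 0 and 0, and with the combination 9 and 2. Over all tested genes 2.77% were called higher and 1.94% lower with ATRA, and 0.0128% and 0.486% with palbociclib. The shares were 3.76% and 4.28% with the combination, and 2.11% and 0.997% for the combination against palbociclib. The median log2 difference of the 22 genes was 0.52, 0.13 and 0.55, against -0.01, 0.00 and -0.01 over all tested genes. Of the 8 called higher with ATRA, 4 (ID1, IRF1, TRIB1 and MAP3K8) reached the minimum of 5 RPKM only through the groups given ATRA, as did 3 of the 9 with the combination, so the filter itself favoured higher calls and these counts and medians are a description. A fit that blocks on replicate number gave 10 and 2, 0 and 0, and 11 and 2, and for the combination against palbociclib 8 and 2 in place of 3 and 1. Under that block limma called 4.81% of all tested genes higher and 4.42% lower with ATRA, 0.0639% and 0.997% with palbociclib, 6.57% and 8.82% with the combination, and 3.58% and 2.57% for the combination against palbociclib. IRF1, an interferon-response factor, averaged 1.67 ± 0.577 RPKM untreated and 6.67 ± 0.577 RPKM with ATRA. BTG2, an antiproliferative gene, rose from 4.67 ± 0.577 to 15.3 ± 1.53 RPKM (log2 difference 1.70, limma, adjusted p = 1.54e-05).

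TRIB1, a pseudokinase that regulates C/EBP proteins, averaged 2.33 ± 0.577 RPKM untreated and 7 ± 1 RPKM with ATRA. ID1, an inhibitor of basic helix-loop-helix factors, stood at 0 in every untreated library and averaged 6.33 ± 1.15 RPKM with ATRA. Both genes called lower are named here after their values were seen. The proliferation factor MYC fell by 1.18 on the log2 scale, from 186 ± 18.6 to 82.7 ± 17.6 RPKM (limma, adjusted p = 9.22e-04). The MAP kinase phosphatase DUSP2 fell by 0.64, from 11 to 7 RPKM in each library (limma, adjusted p = 2.23e-05). The SE of DUSP2 (0.06) partly reflects the absence of any recorded spread in these groups. The rapid genes EGR2, EGR3, EGR4, NR4A1, NR4A2, NR4A3, DUSP1, KLF2 and ARC were at 0 in all 12 libraries, as FOSB was. RNA was taken only at 3 h, so earlier levels of these genes, and of FOS and EGR1, were not measured.

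Upstream of AP-1 lie the MAP kinases, their kinases and the factors that act on the FOS and EGR1 promoters. Of 28 such genes 22 were tested, and 0 were called in either direction with ATRA, palbociclib or the combination; at an adjusted p under 0.05 (limma) 1 was higher and 4 lower with ATRA, 0 and 1 with palbociclib, and 1 and 4 with the combination. Of all tested genes 8.71% were higher and 11.6% lower with ATRA at that level. The shares were 0.908% and 3.16% with palbociclib, and 12.7% and 17.7% with the combination. With the replicate block 1 was called higher and 1 lower with ATRA, RPS6KA1 (54 ± 5.57 to 70 ± 7 RPKM, adjusted p = 8.68e-05, limma) and MAPK14, the p38 kinase (25.7 ± 0.577 to 19.7 ± 1.53 RPKM, adjusted p = 5.23e-04, limma). Under that block 4.81% of all tested genes were called higher and 4.42% lower with ATRA, so these single calls are a description. Of 12 repressors, interactors and mRNA decay factors 7 were tested. Of these 0 were called with ATRA and 1 with the combination, ZFP36, which encodes the decay factor tristetraprolin (20 ± 2.65 to 33.7 ± 1.15 RPKM, log2 difference 0.76, limma, adjusted p = 3.16e-04). Among all tested genes 3.76% were called higher and 4.28% lower with the combination. With ATRA alone ZFP36 averaged 31.3 ± 1.53 RPKM, with an adjusted p of 0.00126 (limma), or 9.15e-05 with the replicate block.

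Of 20 genes with classical AP-1 sites in their promoters 9 were tested, and 4 were called higher and 0 lower with ATRA, with the combination, and with the combination against palbociclib, while 0 were called with palbociclib alone. Over all tested genes 2.77% were called higher and 1.94% lower with ATRA, 3.76% and 4.28% with the combination, and 2.11% and 0.997% for the combination against palbociclib. At an adjusted p under 0.05 (limma) 5 were higher and 1 lower with ATRA, the lower one being the filament gene VIM (17 ± 1.73 to 12.3 ± 1.15 RPKM, log2 difference -0.46, adjusted p = 0.00482), named after its value was seen. The chemokine CCL2 rose from 11.7 ± 1.15 to 220 ± 12.5 RPKM with ATRA (log2 difference 4.23, limma, adjusted p = 8.11e-10), and the chemokine CXCL8 from 12.7 ± 1.15 to 59.3 ± 6.11 RPKM (log2 difference 2.22, limma, adjusted p = 4.7e-07). The growth factor HBEGF rose from 6.67 ± 0.577 to 24.7 ± 5.77 RPKM (log2 difference 1.85, limma, adjusted p = 8.38e-05) and the urokinase receptor PLAUR from 15.7 ± 1.53 to 24 ± 1 RPKM (log2 difference 0.62, limma, adjusted p = 2e-04). The collagenase gene MMP1, the model AP-1 target, was at 0 in all libraries, as were MMP3, MMP9, IL2 and IL6. The list was chosen with earlier results of these data known, so its counts are a description. AP-1 sites were not searched for in these genes, and binding of AP-1 at them was not measured.

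**Figure D4:**
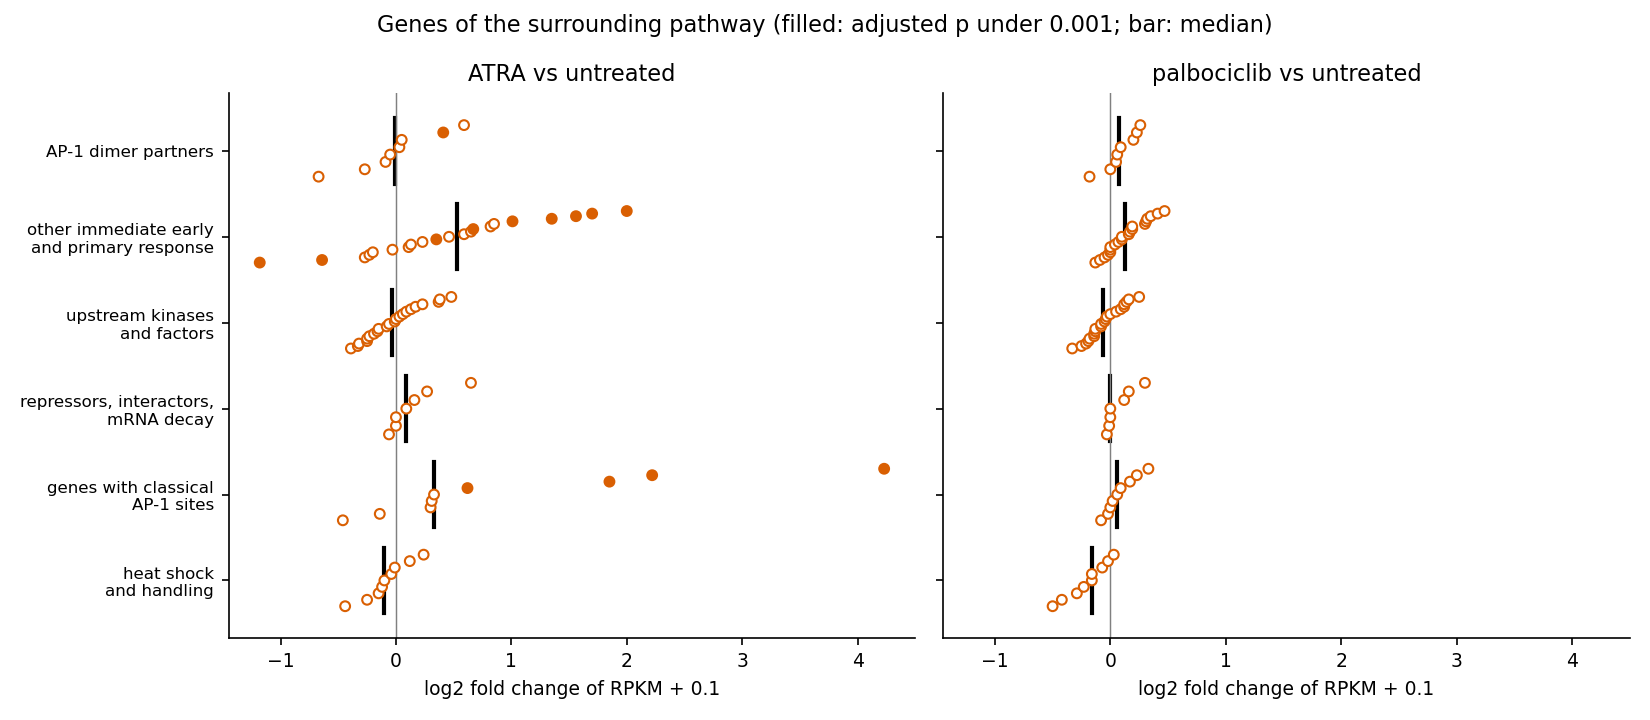
Log2 fold change of RPKM + 0.1 (x axis) of the tested genes of 6 lists (y axis) with ATRA (left) and palbociclib (right) against untreated cells; each point is a gene, filled where the adjusted p was under 0.001, and the bar is the median. The filled points include genes that reached the minimum only with ATRA; ID1, listed at 0 in untreated cells, is counted in the median but not drawn; with ATRA the medians of the other immediate early genes (0.52) and of the genes with AP-1 sites (0.33) lie to the right of 0, and with palbociclib no point is filled.

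Heat shock genes, which report on handling and share stress signals with AP-1, were examined beside these results. Of 9 tested, 0 were called in any comparison with untreated cells at 0.001. At an adjusted p under 0.05 (limma) 3 were lower with the combination (HSPA1B, HSPA8 and HSP90AA1), as were 17.7% of all tested genes. HSPA1B read 25.7 ± 9.29 RPKM untreated, 21.3 ± 7.02 RPKM with ATRA, 17.7 ± 4.93 RPKM with palbociclib and averaged 11.7 RPKM with the combination. Its log2 difference with the combination (-1.08) was the largest of the 9, and those of HSPB1 (0.05) and HSPE1 (-0.07) were small. With the replicate block 3 were called lower with the combination (HSPA1A, HSPA1B and HSPA8), as were 8.82% of all tested genes. Their part in the results above was not tested.

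The members also differ in gene structure and in the AU-rich elements that mark short-lived mRNAs. In GENCODE v44 (GRCh38), 3 of the 10 have a canonical transcript of 1 exon, namely JUN (chr1:58776845-58784048, ENSG00000177606), JUNB (chr19:12791486-12793315, ENSG00000171223) and JUND (chr19:18279694-18281622, ENSG00000130522). FOSL2 (chr2:28392448-28417317, ENSG00000075426) and FOSL1 (chr11:65892049-65900573, ENSG00000175592) have 4 exons, and IER2 (chr19:13150411-13154911, ENSG00000160888) and IER3 (chr6:30743199-30744548, ENSG00000137331) have 2. FOS (chr14:75278826-75282230, ENSG00000170345) and FOSB (chr19:45467995-45475179, ENSG00000125740) have 4, and EGR1 (chr5:138465479-138469303, ENSG00000120738) has 2. FOSL2, FOSB, JUNB, IER2 and IER3 overlap a gene on the opposite strand, and FOSL2 also an unnamed gene on its own strand, so reads of these pairs may not be separable.

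The pentamer ATTTA occurred in the canonical 3′ UTR of 9 of the 10, against 67.5% of 19538 protein-coding genes, and the nonamer TTATTTATT in 2 (FOS and FOSL2), against 8.44%. IER3 had 8.14 pentamers per kilobase and FOS 6.2, both above the 90th percentile of all genes (4.84), JUNB had 4.0, JUN 2.34 and FOSL2 1.85, and IER2 had none. The genes that were lower with ATRA (2.34 for JUN, 1.85 for FOSL2, 1.19 for FOSL1) and those that were higher (8.14 for IER3, 1.34 for JUND, 0.0 for IER2) overlapped in this density. The median over all genes was 1.5.

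Some genes outside the class followed a member closely over the 12 libraries. For FOSL2 these were MFSD2A (r = 0.98), CDR2 (r = 0.978) and MAPK14 (r = 0.976), for FOSL1 TRIB3 (r = 0.961), ERLIN1 (r = 0.958) and PRR3 (r = 0.954), for IER2 LRG1 (r = 0.96), LST1 (r = 0.953) and TMEM205 (r = 0.952), and for JUND ATP5L2 (r = 0.885), MSRB1 (r = 0.864) and PDZD11 (r = 0.857). MFSD2A averaged 11.3, 7.67, 11.3 and 7.33 RPKM in untreated, ATRA, palbociclib and combination cells, and LRG1 averaged 0.667, 18, 1 and 20 RPKM. Each r is Pearson's, on log2(RPKM + 0.1), and describes likeness over libraries that share 4 treatments.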

How the data were processed

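Poly(A) RNA of HL-60 cells (TruSeq, Illumina) was sequenced in 12 libraries, 3 per treatment, grouped by their titles. The authors mapped reads to hg38 with HISAT2, counted them with htseq-count at its default settings and tested counts with voom in Degust; tool versions are not given in the sources used here. The deposited values, treated here as a score, are RPKM written as whole numbers for 58233 genes. Whether they were rounded or cut down is not given, so ratios carry bounds for both. Read counts and depth are not in this table, and no counting interval is given.

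Genes with at least 5 RPKM in at least 3 libraries (7820) were tested with limma 3.58.1 in R 4.3.3 on log2(RPKM + 0.1), with 1 mean per group over all 12 libraries, a variance trend, Benjamini-Hochberg adjustment over all tested genes and a threshold of 0.001. Differences are therefore on the log2(RPKM + 0.1) scale, which understates those of low genes listed above 0. Where a group is listed at 0, the difference depends on the added 0.1 and can be overstated. A fit at 1 RPKM (14003 genes) was used for JUN. The fit was tested on simulated data. Tables and motif searches used Python 3.11.15; coordinates and 3′ UTRs are from GENCODE 44, promoters from RefSeq.

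The members, the filter and the pathway lists were chosen with earlier results of these data known. Named beyond the members were genes called in a list (the 4 largest where more were called) and the 3 genes most correlated with each of the 4 tested members whose group means differed most (JUN and IER3 were not tested). Same-numbered libraries deviated together between the treated groups (r = 0.438 to 0.908) but not reliably between untreated and treated ones (0.0453 to 0.367), so the replicate block was an alternative. Other alternatives changed the pseudocount (0.5, 1), the filter (1, 10, none), the scaling, the trend, the samples fitted, the threshold (0.05) and left out single libraries.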

Additional observations from a re-analysis of the deposited data

How the results depend on the processing

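With limma at an adjusted p under 0.001, the number of members called was 1 with ATRA, 0 with palbociclib, 2 with the combination, 0 for the combination against ATRA, 2 for the combination against palbociclib and 0 for the departure from additivity. The called members, FOSL1 and FOSL2, entered this fit only through the groups without ATRA, where they were higher. With ATRA the number was 2 at a filter of 1 RPKM and with no filter (JUN and IER3 entered, FOSL2 was lost), 0 at a filter of 10 RPKM, which FOSL2 does not reach in 3 libraries, and 4 at an adjusted p under 0.05, with or without the replicate block. With the filter of 1 RPKM and with no filter it was 3 for the combination and 3 for the combination against palbociclib, with JUN and FOSL1 lower, IER3 higher and FOSL2 lost (adjusted p = 0.00181 and 0.00225 at 1 RPKM, limma); IER3 entered only through the groups given ATRA. For ATRA alone, with only the compared groups fitted the number stayed at 1, with FOSL1 in place of FOSL2. For the combination and for the combination against palbociclib it was 0 at the filter of 10 RPKM and 0 when only the compared groups were fitted. Leaving out single libraries gave 0 to 1 with ATRA, 0 to 2 with the combination and 0 to 2 for the combination against palbociclib. Fits without a library hold fewer samples; beyond that the cause was not tested.

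Pairing by replicate number (replicate block over all 12 libraries) left the number of members called at 1, 0, 2, 0, 2 and 0, and in the 9 treated libraries alone it gave 1 for the combination against palbociclib, with FOSL1 lost; this last fit and that of the block at 0.05 were chosen after seeing the data. It changed no other member call. Other counts stayed at their value under both pseudocounts, median-of-ratios scaling and the fit without a trend.

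Of the log2 differences of the 5 tested members, 12 changed sign when a library was left out, none of them called. Over these 12 fits the palbociclib difference ranged from -0.054 to 0.27 for FOSL2, -0.045 to 0.15 for JUNB, -0.067 to 0.15 for JUND and -0.0074 to 0.33 for IER2, and the departure from -0.29 to 0.086 for FOSL2, -0.18 to 0.012 for JUNB and -0.28 to 0.049 for IER2. JUNB with ATRA ranged from -0.17 to 0.023 and JUND for the combination against palbociclib from -0.035 to 0.16. Over all alternatives FOSL2 with ATRA ranged from -1.73 to -1.35 and its adjusted p from 5.47e-06 to 0.00922 (limma). With no filter, genes at 0 in every library were left out, since they could not be fitted. The step of 1 RPKM limits FOS, FOSB, EGR1 and IER3, for which no change below that step can be seen.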
